A study of Mus musculus with 2 samples.

Results

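Long non-coding RNA promoters that were accessible in mouse heart are described here as regions of open chromatin at annotated starts. GENCODE M21 lists 9793 genes of the types lincRNA, antisense, processed_transcript and bidirectional_promoter_lncRNA, with 14564 transcript starts. Of these starts, 11036 in 7678 genes lay over 2 kb from every annotated start of a protein-coding gene and were eligible. Peaks of both replicates were merged into 158036 regions, of which 104208, or 65.9%, had a peak in each replicate. A total of 3381 merged regions touched the 1 kb either side of an eligible start. Of these, 2341 (69.2%) had a peak of each replicate in that window and are called lncRNA promoters below. They made up 2.25% of all regions accessible in both replicates. The other touched regions had a peak in replicate 1 alone (623), in replicate 2 alone (385), or in both replicates but not both within the window (32).

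DNase-seq measures how often the enzyme DNase I cleaves DNA in isolated nuclei. The tissue was heart from B6CASTF1/J animals, which are F1 hybrids of the strains C57BL/6J and CAST/EiJ, all male and aged 14 days, with no treatment labelled. There was 1 group with 2 biological replicates and no contrast. For replicate 1 the label names 3 males and for replicate 2 it states no number, so 1 library may be a pool of hearts and the other a single heart. Differences between kinds of region are therefore given as values in each replicate and were not tested.

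Long non-coding RNAs are transcripts without a long open reading frame, and many are made by RNA polymerase II from promoters with the same open chromatin as those of protein-coding genes. Promoters of mammalian genes fall broadly into CpG-rich ones, often active in many tissues, and CpG-poor ones, often used in few cell types. Bound transcription factors shield short stretches of an open region from DNase I, and these stretches are called footprints. Several lncRNAs are studied in the heart, among them Malat1 and Neat1, which are nuclear RNAs, and Bvht and Carmn, which are linked to cardiac cell fate.

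The sequences of 8 promoters show accessible DNA at or near lncRNA starts in these hearts, from nuclear RNAs through 2 imprinted RNAs to RNAs beside heart muscle genes. They are from the GRCm38 (mm10) reference, which is that of C57BL/6J, and run 5′ to 3′ on the strand of the RNA. Capitals mark bases inside a footprint in both replicates. The Malat1 region at the start is chr19:5802601-5802760, the strongest region in the Neat1 window is chr19:5845781-5846040 and the region of Snhg8, a snoRNA host, is chr3:123508321-123508600, all on the minus strand. Kcnq1ot1 is shown for the 300 bp around its strongest peak, chr7:143296511-143296810 on the minus strand, and Meg3 for chr12:109540801-109541060 on the plus strand. The strongest region of Mir99ahg, which hosts a microRNA cluster, is chr16:77500061-77500220. Gm15873, whose nearest protein-coding start is that of Tnni3, is shown for chr7:4526381-4526560, and C130080G10Rik, nearest to Actc1, for chr2:114057301-114057500, these 3 on the plus strand. The Neat1 and C130080G10Rik runs hold no annotated start of the RNA named. The start of the antisense RNA Frmd8os, on the plus strand, is nearer to the Neat1 run than that of Neat1 itself.
Malat1: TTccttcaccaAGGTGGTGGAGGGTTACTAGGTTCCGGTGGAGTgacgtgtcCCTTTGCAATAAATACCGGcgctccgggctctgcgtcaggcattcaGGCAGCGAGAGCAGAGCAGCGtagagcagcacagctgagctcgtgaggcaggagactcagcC
Neat1: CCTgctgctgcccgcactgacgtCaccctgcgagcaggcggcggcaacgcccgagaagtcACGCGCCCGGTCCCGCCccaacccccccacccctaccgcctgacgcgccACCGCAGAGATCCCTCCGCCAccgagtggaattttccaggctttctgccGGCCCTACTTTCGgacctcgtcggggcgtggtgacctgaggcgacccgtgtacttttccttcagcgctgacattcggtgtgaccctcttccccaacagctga
Snhg8: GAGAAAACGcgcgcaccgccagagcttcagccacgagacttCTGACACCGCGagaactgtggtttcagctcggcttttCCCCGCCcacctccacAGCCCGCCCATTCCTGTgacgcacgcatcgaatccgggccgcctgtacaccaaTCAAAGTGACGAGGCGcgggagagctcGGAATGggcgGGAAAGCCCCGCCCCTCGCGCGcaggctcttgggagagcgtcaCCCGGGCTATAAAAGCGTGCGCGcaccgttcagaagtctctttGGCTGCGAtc
Kcnq1ot1: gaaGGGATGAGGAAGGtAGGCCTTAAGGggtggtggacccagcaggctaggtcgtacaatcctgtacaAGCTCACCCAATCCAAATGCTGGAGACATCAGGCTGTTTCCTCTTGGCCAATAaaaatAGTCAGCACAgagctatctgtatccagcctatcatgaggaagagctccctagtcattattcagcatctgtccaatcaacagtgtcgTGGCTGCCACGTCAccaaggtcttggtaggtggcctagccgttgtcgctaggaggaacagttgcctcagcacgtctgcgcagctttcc
Meg3: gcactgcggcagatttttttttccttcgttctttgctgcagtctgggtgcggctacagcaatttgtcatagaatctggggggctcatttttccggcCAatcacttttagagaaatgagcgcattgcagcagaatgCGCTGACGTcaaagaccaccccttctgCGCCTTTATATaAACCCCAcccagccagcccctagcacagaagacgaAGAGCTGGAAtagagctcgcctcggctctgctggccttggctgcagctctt
Mir99ahg: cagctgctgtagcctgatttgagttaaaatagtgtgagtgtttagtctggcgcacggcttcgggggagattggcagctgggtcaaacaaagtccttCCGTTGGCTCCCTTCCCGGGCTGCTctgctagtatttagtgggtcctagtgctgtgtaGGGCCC
Gm15873: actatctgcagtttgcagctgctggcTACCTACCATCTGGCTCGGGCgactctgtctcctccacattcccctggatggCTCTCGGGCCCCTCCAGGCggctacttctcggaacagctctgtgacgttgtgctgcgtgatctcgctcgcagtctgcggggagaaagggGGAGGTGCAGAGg
C130080G10Rik: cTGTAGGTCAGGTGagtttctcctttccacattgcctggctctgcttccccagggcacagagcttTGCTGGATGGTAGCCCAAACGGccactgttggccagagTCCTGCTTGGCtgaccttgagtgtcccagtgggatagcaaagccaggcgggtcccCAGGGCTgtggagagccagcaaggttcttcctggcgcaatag

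In the Malat1 run, 76 of 160 bases (47.5%) lay in footprints of both replicates, and the annotated starts fall at bases 89 and 90 of the run, counted from its 5′ end. The Snhg8 run had 119 of 280 bases (42.5%) in shared footprints. It holds 4 matches to the SP/KLF motif GGGCGGG or its complement and a TATAAA at bases 235 to 240 that lies wholly in a shared footprint. Kcnq1ot1 had 33.7% of its bases in shared footprints, and 2 of its 3 CCAAT matches lay wholly inside them. In Meg3 only 39 of 260 bases (15.0%) were shared, but these took in 5 of the 6 bases of a TATAAA and 6 of the 8 bases of a TGACGTCA, the cAMP response element. Neat1 had 21.2% of its bases in shared footprints, Mir99ahg 19.4%, Gm15873 28.9% and C130080G10Rik 26.5%. A match is a run of letters and not a measured binding site.

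The tissue label was checked at protein-coding starts. Regions accessible in both replicates were present at the starts of Myh6 (signal 1.88 in replicate 1 and 1.12 in replicate 2), Tnnt2, Gata4, Nkx2-5, the endothelial gene Pecam1 and the fibroblast gene Col1a1 (8.29 and 6.80). No such region was found at Alb, Apoa1, Krt5, Neurod1, Cd3e or Hba-a1. Peaks numbered 143122 and 125118 and footprints 350009 and 335568 in replicates 1 and 2. The number of reads is unknown, and with it the depth. The tissue holds several cell types, and a weak signal in many cells cannot be told apart from a strong signal in few.

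An accessible promoter was found at 1764 of 7678 eligible lncRNA genes, or 23.0% (exact Clopper-Pearson 95% interval 22.0 to 23.9, which covers counting error only), against 68.6% of 21938 protein-coding genes. Counted by start, 24.1% of 11036 eligible lncRNA starts and 57.8% of 93513 protein-coding starts were open. A gene with more starts has more windows in which a region can lie. The share of lncRNA genes was 10.1% where a region had to cover a start base and 14.0% from the upper 50% of peaks by signal. The number of regions was then 797 and 1338. Windows of 2 kb gave 29.7% and replicate 1 alone 27.3%. Genes of type processed_transcript were open most often, with 195 of 500 (39.0%, interval 34.7 to 43.4). Antisense genes followed with 416 of 1760 (23.6%, 21.7 to 25.7) and lincRNA genes with 1151 of 5408 (21.3%, 20.2 to 22.4). Of the bidirectional_promoter_lncRNA genes only 10 of 190 were eligible, since the type is defined by a protein-coding start close by, and 2 of the 10 were open.

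**Figure D1:**
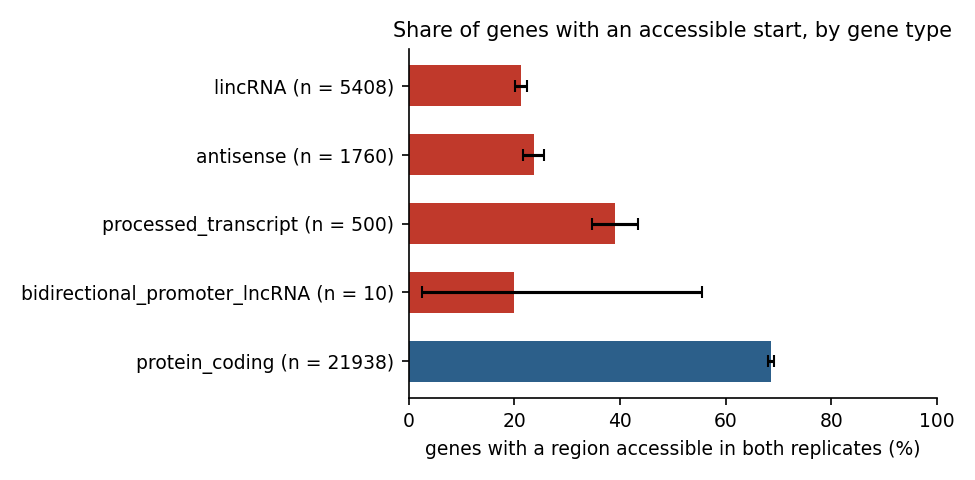
Bars give the percentage of eligible genes of each GENCODE type with a region accessible in both replicates within 1 kb of a start, and lines are exact 95% intervals. Protein-coding genes (68.6%) stand above all 4 lncRNA types, of which processed_transcript is highest (39.0%).

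On the autosomes 1735 of 6982 eligible genes (24.8%) were open, and on X 29 of 145 (20%, 13.8 to 27.4). Counted by start the order turned, with 25.9% of 10017 starts open on the autosomes and 28% of 243 on X (22.4 to 34.1). For protein-coding genes, counted by gene, the shares were 69.9% and 51.5%. Of the 551 eligible genes on Y none was open, and a count of 0 allows a share of up to 0.544% by the rule of 3 counts, or 0.667% by the exact upper limit. Both limits cover counting error only. Of 102 merged regions on Y, 35 were accessible in both replicates. How often a sequence recurs in the reference was counted for lncRNA promoters alone. Whether reads could be placed at the Y starts was thus not tested, and closed starts cannot be told apart from unreadable ones there. The 23.0% over all chromosomes includes these Y genes. Among autosomes, chromosome 17 had the highest share of open genes (35.0%) and chromosome 3 the lowest (19.1%).

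Most open genes had a single promoter region. There were 1263 genes with 1 region, 391 with 2, 76 with 3 and 34 with 4 or more, and the most regions, 11, were at Mir99ahg. Conversely, 91 regions lay near starts of more than 1 gene. The middle of the strongest peak was a median of 267 bp from the nearest start, against 108 bp at protein-coding starts. It lay within 200 bp of the start in 44.0% of lncRNA promoters and in 59.8% of regions at protein-coding starts. The larger part lay upstream, 55.1% against 58.0%. Only 797 lncRNA promoters (34.0%) covered an eligible start base.

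**Figure D2:**
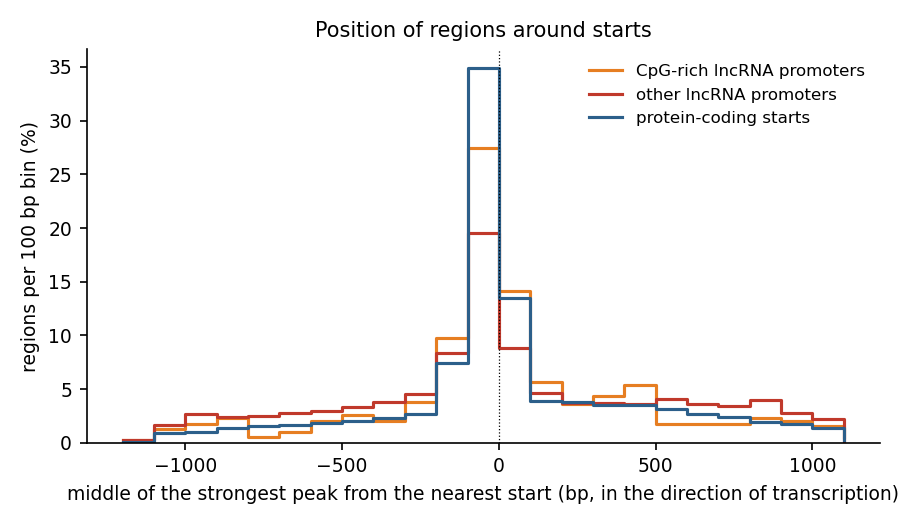
The x axis is the distance in bp from the nearest start to the middle of the strongest peak, in the direction of transcription, and the y axis the percentage of regions per 100 bp bin. All 3 groups peak just upstream of the start. The CpG-rich lncRNA promoters (median distance 146 bp) lie closer to it than the others (304 bp).

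Signal, as deposited per peak and taken as scaled by read depth, was lower at lncRNA promoters than at protein-coding starts and slightly higher than elsewhere in the genome. The median of the 2341 lncRNA promoters was 1.14 in replicate 1 and 0.895 in replicate 2 (mean 1.02 ± 0.174, SD, n = 2). In the 27848 regions at protein-coding starts it was 2.43 and 2.19, and in the 74024 regions elsewhere 0.929 and 0.722. The lncRNA median was thus 46.9% and 40.9% of the protein-coding one, and 123% and 124% of the one elsewhere. The order of the 3 kinds of region was the same in both replicates. From the upper 50% of peaks the lncRNA median was 1.92.

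**Figure D3:**
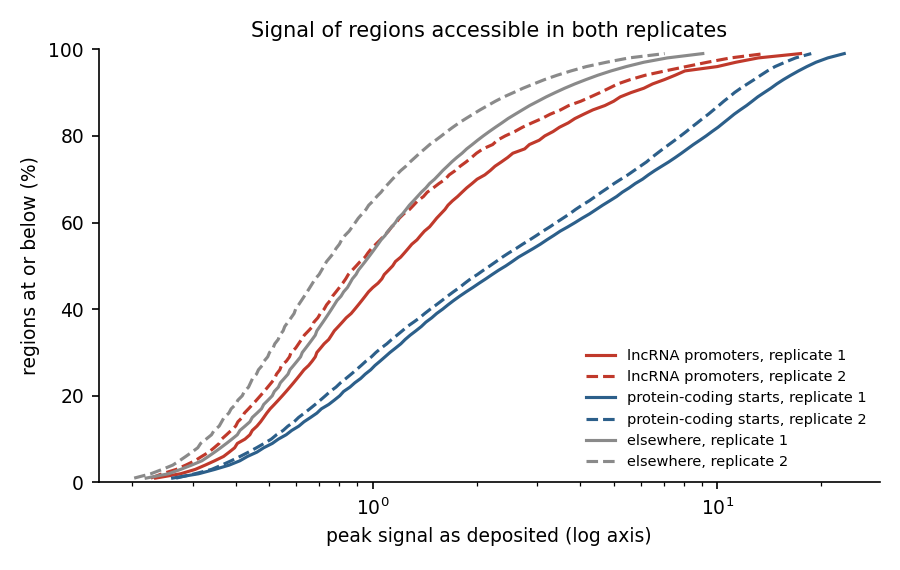
The x axis is the peak signal on a log scale and the y axis the percentage of regions at or below it, for lncRNA promoters, protein-coding starts and other regions, with replicate 1 as solid and replicate 2 as dashed lines. In both replicates the lncRNA curve runs between the others and nearer to that of regions elsewhere.

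Signal was unevenly spread among the lncRNA promoters. The highest 10% held 45.1% of the summed signal. By the mean of the replicates, 243 reached 5, 75 reached 10 and 12 reached 20, while 431 stayed below 0.5. Promoters of processed_transcript genes had medians of 1.35 and 1.09 in replicates 1 and 2, those of antisense genes 1.16 and 0.925, and those of lincRNA genes 1.09 and 0.842. Promoters that covered a start had medians of 1.33 and 1.06, against 1.06 and 0.833 for those that did not.

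CpG-rich promoters had the higher median signal, with overlap between the classes. A region was called CpG-rich where the 300 bp around its strongest peak had at least 50% GC and a CpG ratio, observed over expected, of at least 0.6. This held for 390 lncRNA promoters (16.7%, 15.2 to 18.2), 57.7% of regions at protein-coding starts and 3.81% of those elsewhere. CpG-rich lncRNA promoters had median signals of 3.23 and 2.78, against 1.01 and 0.800 for the 1951 others. In replicate 1 the lower quartile of the CpG-rich class, 1.07, lay below the upper quartile of the others, 1.97. At protein-coding starts the medians were 5.35 and 4.85 for CpG-rich regions and 1.18 and 0.973 for the others. Within each CpG class the lncRNA median was the lower, and among the CpG-poor regions it was nearer to that of protein-coding starts. Of the 75 lncRNA promoters with a mean signal of 10 or more, 65 were CpG-rich. The 182 CpG-rich promoters that also covered a start had medians of 4.33 and 4.20. Promoters of processed_transcript genes were CpG-rich in 28%, antisense in 16.0% and lincRNA in 14.6%.

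Promoters closer to protein-coding genes had the higher signal. Medians in replicates 1 and 2 were 1.66 and 1.35 for the 274 within 5 kb of a protein-coding start, 1.30 and 0.991 for the 633 at 5 to 20 kb, 1.13 and 0.889 for the 951 at 20 to 100 kb, and 0.773 and 0.645 for the 483 beyond 100 kb. The CpG-rich share fell with distance as well, from 24.8% in the nearest class to 9.11% in the farthest. How far CpG content accounts for the difference in signal was not tested. By their middle base, 1839 promoters were intergenic with respect to protein-coding genes, 400 in introns and 102 in exons.

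Starts on either side of the 2 kb distance limit had like values. Of 182 lncRNA starts 2000 to 2500 bp from a protein-coding start, 54 (29.7%) had a region accessible in both replicates, with median signals of 1.11 and 1.05. Of 235 starts just inside the limit, at 1500 to 2000 bp, 79 (33.6%) had one, with medians of 1.21 and 0.997.

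Most lncRNA promoters held a footprint. A footprint in both replicates was found in 1970 promoters, 84.2% (82.6 to 85.6), and in 84.2% of all regions accessible in both replicates. It was found in 83.1% at protein-coding starts and 84.6% elsewhere. A footprint in replicate 1 alone was found in 138 lncRNA promoters, in replicate 2 alone in 132, and in neither in 101. The lncRNA promoters held 6591 and 6639 footprints in replicates 1 and 2, a mean of 2.82 and 2.84 per region. Protein-coding starts held 3.44 and 3.60 and other regions 2.50 and 2.43. Footprints in lncRNA promoters had a median length of 11 and 10 bp. Of those in replicate 1, 59.7% were met by 1 of replicate 2, against 70.0% at protein-coding starts and 59.5% elsewhere.

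Footprints went along with signal, and both lists were made from the same alignments. Among lncRNA promoters with a mean signal below 0.5, 56.4% had a footprint in both replicates, and all 243 promoters at 5 or more had one. At a signal of 2 to 5, footprints covered a mean of 28% and 27.2% of the bases of lncRNA promoters in replicates 1 and 2. They covered 22.7% and 22.5% at protein-coding starts and 33.8% and 32.5% elsewhere. At like signal, the footprinted share of lncRNA promoters lay between the other kinds of region in all 6 signal classes and both replicates. Region lengths differ between the groups, with medians of 219, 240 and 200 bp.

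**Figure D4:**
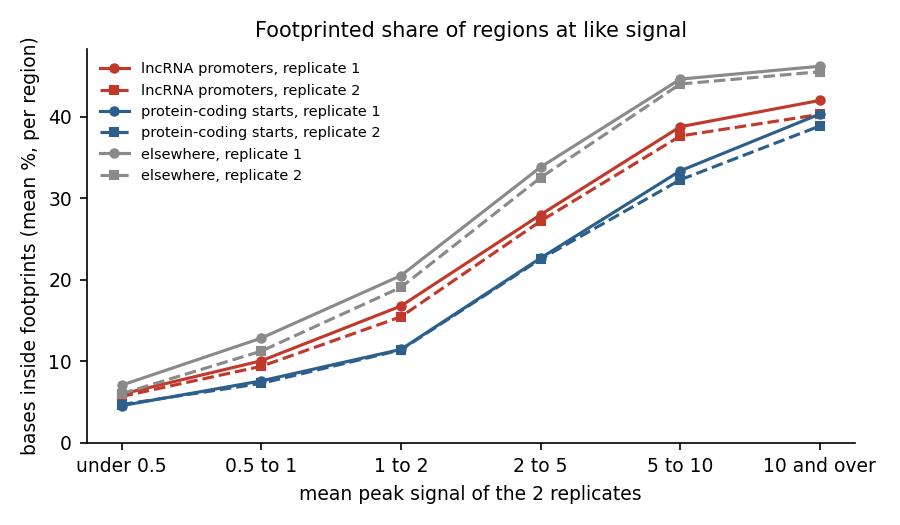
The x axis gives 6 classes of mean peak signal and the y axis the mean percentage of bases of a region inside footprints, for lncRNA promoters, protein-coding starts and other regions, with circles for replicate 1 and squares for replicate 2. The lncRNA points lie between the others in every class.

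Among 30 lncRNA names listed for their study in heart, 22 were found in GENCODE M21, 21 had an eligible start and 13 had an accessible promoter, beside 23.0% of all eligible lncRNA genes. Matching by other names in the RefSeq table, added after the values were seen, gave 26 found, 25 eligible and 15 open. Of the names first missed, Gm20748 and Mir143hg are second names of Bvht and Carmn, and Cytor and Tbx2os1 were not matched. Oip5os1 (Cyrano), 1700020I14Rik in GENCODE, had 18.6 and 11.1 in replicates 1 and 2, and Norad, 2900097C17Rik in GENCODE, had 4.05 and 2.61. Gata6os and Playrr, 1010001N08Rik and D030025E07Rik in GENCODE, had no member region.

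Malat1 had the highest signal of the cardiac list in both replicates. There were 3 regions, with signals of 24.7 and 21.5 in replicates 1 and 2 at 999 bp upstream of its start, 13.7 and 9.55 at the start, and 0.468 and 0.567 at an internal start. Neat1, the scaffold of paraspeckles, had 14.1 and 9.57 at 433 bp upstream, 7.33 and 7.05 nearer the start, and 1.35 and 1.47 downstream. The first 2 of these Neat1 regions are nearer to the start of Frmd8os, at 288 and 8 bp, and cannot be assigned to 1 of the RNAs. For Malat1 and Neat1 the strongest region lay upstream of the annotated start rather than over it.

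Bvht, the Braveheart RNA, had 1 region with 2.46 and 2.28. Its neighbour Carmn, a smooth muscle and heart RNA that hosts microRNAs, had 2.40 and 2.83 at the start and 6.33 and 5.32 about 1 kb upstream, where the distance was 1014 bp. The imprinted Kcnq1ot1 had 5.62 and 3.49 at its start and 1.09 and 0.943 within the RNA. Meg3 had 1.82 and 0.979 at its start, H19 1.30 and 0.967, and a footprint was called at H19 in replicate 2 alone. Of these imprinted RNAs Kcnq1ot1 was the highest in both replicates.

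At Hand2os1 and Tbx3os1 the strongest regions lay at starts that were not eligible. Hand2os1, the upstream antisense RNA of Hand2, had 4 regions between 0.681 and 1.26 in replicate 1 and between 0.633 and 0.973 in replicate 2. Its strongest region (5.42 and 4.29) lay at a start within 2 kb of a Hand2 start and was not counted. Tbx3os1, beside the conduction system factor Tbx3, had 2.28 and 1.62 at 1 internal start and 0.404 and 0.501 at another. Its strongest region, with 8.26 and 6.54, was at a start close to Tbx3 and left out.

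The p53-linked RNAs Trp53cor1 and Lncpint and the Myc neighbour Pvt1 were open as well. Trp53cor1 had 3.22 and 2.74 at its highest region, Lncpint 7.89 and 7.14 at the highest of 6, and Pvt1 2.77 and 3.37 at the highest of 4. Dnm3os, which hosts microRNAs and is antisense to Dnm3, had 2.76 and 1.74. At the highest region of each, replicate 2 was the higher for Pvt1 alone among these 4.

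Mhrt, an antisense RNA with the start of Myh6 as its nearest protein-coding start, was not eligible. Its starts lie 1751 bp or more from a Myh6 start but under 2 kb, and its region had signals of 2.43 and 1.82. Of the 8 eligible RNAs found by their listed name and without a member region, 4 were accessible at starts within 2 kb of a protein-coding start: Gas5 (16.5 and 12.6), Tug1 (13.4 and 10.5), Crnde (13.5 and 10.1) and Fendrr (3.52 and 4.06). For Miat, Hotair, Sox2ot and Gm20751 no region accessible in both replicates was found within 1 kb of a start.

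Most listed host RNAs of small RNAs were open. Of the microRNA hosts 16 of 18 eligible RNAs had a promoter region, beside 23.0% of all eligible lncRNA genes. The highest of these were Dleu2 with 14.3 and 13.1, at a region that also lies at the start of Gm27017, Mir17hg with 8.73 and 8.36, and Lncpint. Others were weak, such as Gm28653 with 0.468 and 0.286, Mirg with 0.418 and 0.340 and Mir124a-1hg with 0.411 and 0.257. The number of starts per gene was not matched to all eligible genes for this or the other lists. Mir99ahg had 16 starts and Lncpint 14. With the RefSeq names 18 of 20 were open, among them Mir100hg (3110039I08Rik) with 11.6 and 9.18. Of the snoRNA hosts, whose introns carry small nucleolar RNAs, 10 of 12 were open, led by Snhg8 with 21.3 and 14.9, Snhg15 with 18.6 and 15.0 and Snhg5 with 15.1 and 14.6. With the RefSeq names 11 of 13 were open, and Snhg16 (1810032O08Rik) had 19.7 and 13.9. The other 2, Gas5 and Snhg1, had their regions within 2 kb of protein-coding starts. Snhg14, with 0.184 and 0.179, was the lowest of the 40 RNAs found by their listed name and with a promoter region. Mir133a-1hg, host of a heart muscle microRNA, had 0.738 and 0.460.

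Of the imprinted or X-inactivation RNAs, 10 of 14 eligible were open, again beside 23.0% of all eligible lncRNA genes. Beside Kcnq1ot1 the highest were Ftx with 6.74 and 5.13 and Airn, antisense to Igf2r, with 3.95 and 2.47. At Xist, which silences an X chromosome in females, these male hearts had no region over the start, and 1 of 1.31 and 0.752 at 987 bp upstream. Tsix had none. Of the nuclear RNAs 5 of 7 were open, or 7 of 9 with the RefSeq names, beside the same 23.0%, among them the X-linked Firre with 3.85 and 2.89.

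**Figure D5:**
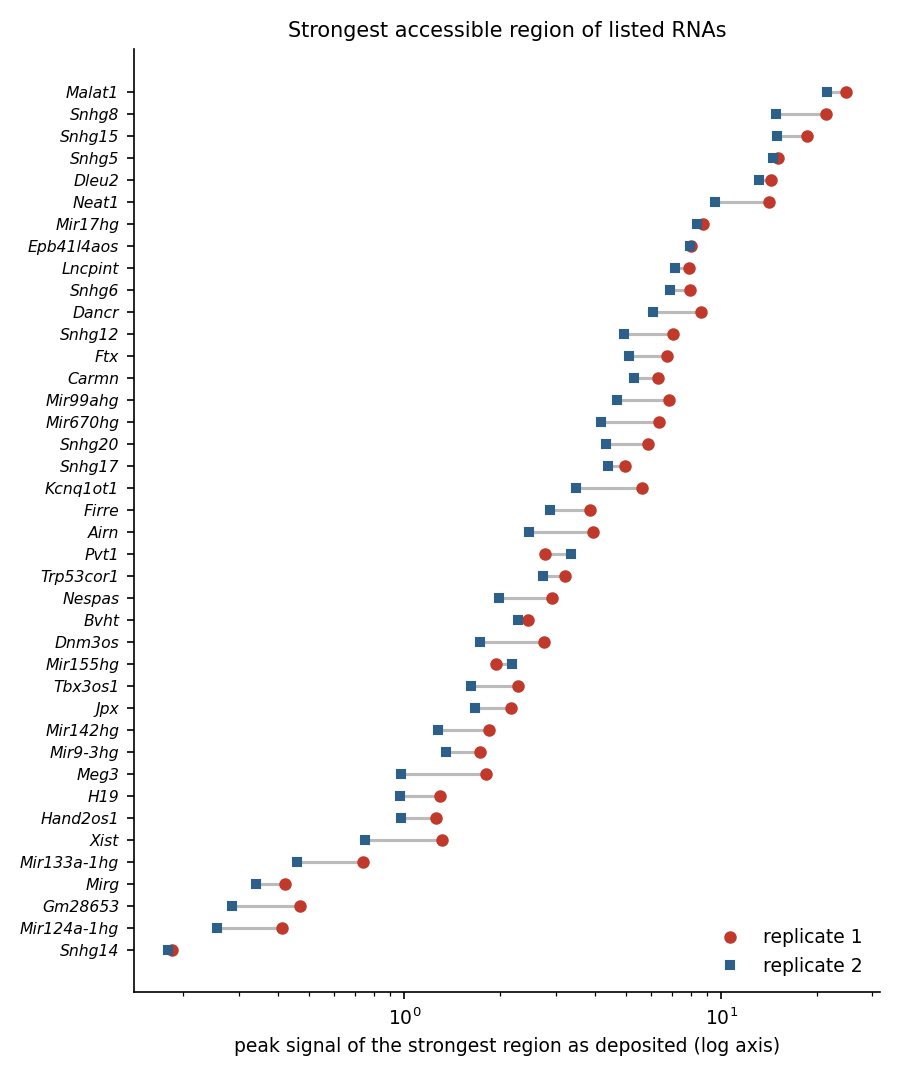
Each row is an RNA found by its listed name and with an accessible promoter, 40 in all, and the x axis is the signal of its strongest region on a log scale, with circles for replicate 1 and squares for replicate 2. Malat1 is highest and Snhg14 lowest, and replicate 1 is the higher in 38 of 40.

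In 44 lncRNA promoters the nearest protein-coding start belonged to 1 of 89 listed heart genes, and these genes numbered 23. This was 1.88% of lncRNA promoters, against 1.05% of regions elsewhere. Their median signals were 1.09 and 0.883, close to those of all lncRNA promoters. Of the 44, 29.5% were CpG-rich and 90.9% had a footprint in both replicates, beside 16.7% and 84.2% of all lncRNA promoters. In the 775 regions elsewhere with a listed heart gene as the nearest, the shares were 7.74% and 81.8%. These differences were not tested. Hand2 had the most, with 9 at Hand2os1, Gm34030 and 5033428I22Rik.

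The highest were 2 regions of 1700113A16Rik, 9909 and 9499 bp from the start of Mef2d, a myocyte enhancer factor. They had 18.9 and 13.1, and 13.0 and 11.4, in replicates 1 and 2. G630016G05Rik, at 1322 bp from a start of Meis2, had 6.46 and 5.72. With sarcomere genes as the nearest, Gm15873, at 2242 bp from the cardiac troponin I gene Tnni3, had 5.20 and 3.62, and C130080G10Rik, at 3853 bp from the cardiac actin gene Actc1, had 5.09 and 3.10. The Gm15873 region lies in an exon of Dnaaf3.

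Gm49540 had 3.45 and 2.00 at 7882 bp from the myoglobin gene Mb, and AC119234.1 had 2.50 and 1.67 at 63222 bp from Ankrd1, a stress-responsive sarcomere gene. With cardiac transcription factors as the nearest, Tbx3os2 had 3.73 and 2.83 at 11052 bp from Tbx3. B230312C02Rik had 3.64 and 2.39 at 50862 bp from Gata5, and Gm29824 had 2.50 and 1.98 at 3188 bp from Tbx20. All of the 10 highest regions with a listed heart gene as the nearest were higher in replicate 1.

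The 10 lncRNA promoters with the highest signal were mostly CpG-rich. Of the 10, 9 were CpG-rich, 7 belonged to lincRNA genes and 5 covered a start. The highest, with 60.5 and 59.6, was at Gm42418, chr17:39846781-39846900, a gene model known to overlap a ribosomal RNA repeat copy. Its 32-base words occurred a median of 2 times in the reference, and reads of the repeat elsewhere could be placed there. Gm15564 (44.4 and 35.6) lay in an intron of Kpna1, at 1574 bp from the start of Kpna1. Only 55.4% of the 32-base words in the Gm15564 window occurred once in the reference, and 50.6% in that of 9430037G07Rik. Reads of other copies could thus be placed at these regions as well.

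Gm15408 (31.4 and 23.0), Tmem250-ps (28.2 and 23.6), 1700096K18Rik (27.5 and 22.8), 9430037G07Rik (25.6 and 22.8) and Gm33195 (26.2 and 20.2) came next. Malat1 was the eighth, followed by 1810026B05Rik, a processed_transcript gene beside Chd2 with 23.9 and 21.5, and 1700028E10Rik with 24.3 and 19.9. Among antisense genes Gm15564, 1700113A16Rik and Snhg7os (17.7 and 12.8) were the highest. Among processed_transcript genes the third was Zswim6, with 20.3 and 16.9. It counts as a lncRNA here only by its type in GENCODE M21, and whether it codes for a protein was not examined. Of the 2 bidirectional_promoter_lncRNA promoters, Gm16196 (1.23 and 0.836) was near the median and Gm48814 (0.816 and 0.567) below it, at rank 1564 of 2341.

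The most footprints were also at Zswim6, with 18 and 19 in replicates 1 and 2 over 760 bp. Gm48623 had 14 in each replicate over 820 bp, at a signal of 4.09 and 2.47. Gm9530 had 13 and 12 over 500 bp, at 12.5 and 13.4. These regions were longer than the median of 219 bp.

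Replicate 1 was the higher in 1883 lncRNA promoters (80.4%), with a median log2 ratio to replicate 2 of 0.30 (SD 0.34 across promoters), and in all regions accessible in both replicates the median was 0.31. Only 13 promoters lay more than 2-fold from the median ratio. Farthest toward replicate 1 were Gm47684 (0.794 and 0.257), Gm20559 (1.35 and 0.531) and Gm13905 (1.65 and 0.657). Farthest toward replicate 2 were BC043934 (0.362 and 0.728), Gm15201 (0.312 and 0.615) and Gm40864 (0.234 and 0.442). All 6 were weak or middling regions. Across the promoters log2 signal had a Pearson r of 0.97 between replicates, as a description of regions that share their sequence.

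Most sequence motifs, though not all, placed lncRNA promoters between protein-coding starts and other open regions. Of 16 motifs searched on both strands in the 300 bp around the strongest peak, 12 had a share in lncRNA promoters between those of the other kinds of region. GGGCGGG, bound by SP and KLF factors, was present in 14.2% of lncRNA promoters (12.8 to 15.7), 37.9% of regions at protein-coding starts and 6.36% elsewhere. The ETS motif CCGGAAGT was present in 1.67%, 4.26% and 0.566%, and the NRF1 motif GCGCATGC in 1.84%, 3.38% and 0.782%. These GC-rich motifs were all less common than at protein-coding starts.

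Motifs of cardiac factors, unlike the GC-rich ones, were more common than at protein-coding starts, and so were several other motifs. AGATAA, bound by GATA factors, was present in 11.1% of lncRNA promoters (9.86 to 12.4), 5.60% at protein-coding starts and 13.3% elsewhere. The NKX2 motif CACTTNA was present in 11.7%, 7.95% and 14.3%, and the TEAD motif CATTCCA in 5.08%, 2.87% and 6.25%. For the MEF2 core TATTTTTA, the share of 3.84% (3.10 to 4.70) was close to the 3.69% elsewhere and above the 1.21% at protein-coding starts. In lncRNA promoters, at protein-coding starts and elsewhere, TATAAA had 8.42%, 4.76% and 10.7%. The AP-1 motif TGANTCA had 11.0%, 5.30% and 12.2%, and the homeobox motif TAATTA 4.49%, 1.78% and 4.98%. The E-box CAGCTG had 27.9%, 20.2% and 30.1%. The direction was thus not particular to motifs of cardiac factors.

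CpG content went along with these shares. Among CpG-rich lncRNA promoters 40.8% held GGGCGGG and 5.13% AGATAA, against 8.87% and 12.3% of the others. At CpG-rich protein-coding starts the shares were 53.4% and 2.67%, and at the other protein-coding starts 16.7% and 9.59%. The differences in GGGCGGG and AGATAA between lncRNA promoters and protein-coding starts thus kept their direction within each CpG class. Both were smaller there than over all regions. Those of the ETS, TEAD and MEF2 motifs kept their direction too, but not all beyond counting error. For ETS in both classes and TEAD among CpG-rich regions, the interval of the lncRNA share held the protein-coding share. The NKX2 difference turned among CpG-rich regions, with 4.87% in lncRNA promoters against 5.23% at protein-coding starts. For NRF1 among the other regions it was 1.23% (0.790 to 1.82) against 1.05%. In these NKX2 and NRF1 values the order was the reverse of that over all regions, but within counting error, so no reversal can be read from them.

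Few lncRNA promoters lay in repeats. In 42 (1.79%) at least 50% of the 300 bp window was masked as repeat in the reference, against 3.03% of regions elsewhere and 0.801% at protein-coding starts. In 26 promoters the 32-base words occurred more than once by the median, so that their reads could have been placed at another copy.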

How the data were processed

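Peaks and footprints of each replicate were used as deposited, on mm10. Per the labels' readme files, the authors derived each list from 1 replicate's own filtered alignment, and pooling is not mentioned. The signal of a peak (column 7 of the deposited lists) was taken as scaled by read depth by the authors, since the readme files list a read-depth normalized signal track of that alignment. The exact scaling, aligner, caller, read totals and handling of CAST/EiJ reads are not stated. Column 5 of the footprint lists that the authors deposited, another value of 0.01 throughout, has no stated meaning and was not used. Lists of false discovery rates were not used.

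Peaks of the larger set that overlapped or touched were merged. A region's value in a replicate is its highest peak signal there, and a footprint counts where it shares at least 1 base. The regions called elsewhere reach neither 1 kb from a protein-coding start nor an eligible lncRNA start in both replicates, and 5 lncRNA promoters also reached a protein-coding window. Shares have exact Clopper-Pearson 95% intervals for counting error. With 1 group of 2 samples no test was made. The functions were tested on simulated data. Named are all cardiac RNAs listed, the 10 highest promoters, 10 with a heart gene as the nearest, the 3 highest of each type and of the other lists, the 3 with most footprints and the 3 farthest apart in each direction. The lncRNA promoters, lists and rules were chosen with earlier results of these data known, and Snhg14, Mir133a-1hg, Xist, Tsix, Snhg1, Firre, Frmd8os, Gm27017 and the RNAs matched through RefSeq names were named after their values were seen. Overlaps, medians and intervals were computed in Python 3.11.15 with pysam 0.24.0, scipy 1.17.1, pandas 2.3.3 and numpy 2.4.6. The reference was GRCm38.p6. Alternatives covered windows, distances, gene types, peak sets, thresholds and each replicate alone.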

Additional observations from a re-analysis of the deposited data

How the results depend on the processing

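No paired analysis was possible because there is 1 group. The number of lncRNA promoters was within 1.5 times of 2341 except where a region had to cover a start base (797) or where peaks were limited to the upper 50% by signal (1338). Each pair below gives replicate 1 alone, then replicate 2 alone, and for the number it was 3038 and 2771. The share of open genes (23.0%) moved to 21.5% with the 5′ end of the gene alone, 24.1% for starts over 1 kb from protein-coding starts, 10.1% where a start base had to be covered, 17.3% with the smaller peak set, 14.0% with the upper 50% of peaks, 29.7% with windows of 2 kb and 18.6% with 500 bp. From each replicate alone it was 27.3% and 24.9%. The median signal (1.02) moved to 1.20 with a covered start base, 1.53 with the smaller peak set, 1.92 with the upper 50% of peaks and 1.35 when divided by the median of all peaks, a value on another scale. From each replicate alone it was 0.837 and 0.752. The share with footprints (84.2%) moved to 88.5% with a covered start base, 92.4% with the smaller peak set and 94.8% with the upper 50% of peaks, and was 82.6% and 84.5% from each replicate alone. The signal as a percentage of that at protein-coding starts (43.9%) moved to 51.7% with a covered start base and 49.6% with the upper 50% of peaks, and was 50.0001% and 44.7% from each replicate alone. Under all these settings it stayed below 100%. With 500 bp windows 15 of 16 motifs, not 12, had a share between the other kinds of region. Read totals are unknown, so whether a closed promoter is closed or was missed at this depth was not tested.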
